A study of Mus musculus with 12 samples.

Results

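The genes described here are 10 markers of cytotoxic lymphocytes, matched by mouse symbol to 10 of the 56953 Ensembl genes in the tables. Nkg7 was chosen by its measured level in these same libraries, low in eYFP+ against eYFP- macrophages, and the other 9 were chosen as genes of natural killer (NK) cells (Gzma, Gzmb, Prf1, Klrd1, Klrb1c, Ncr1, Il2rb) or T cells (Cd3e, Trbc2), so that their levels could be read beside it. RNA of 4 sorted bone marrow populations was sequenced in 3 libraries each, 12 in all, to compare macrophages of embryonic and adult origin with each other and with monocytes. All cells came from 8-week-old female C57BL/6J mice. Per the study's methods they carried Rank cre/+ and R26.eYFP fl/+, so that a cell stays eYFP+ once Rank-cre has been active in it or in an ancestor, and adult stem and progenitor cells have no Cre expression. The embryonic macrophages were the eYFP+ fraction and the adult-derived macrophages the eYFP- fraction of the same F4/80+ VCAM1+ CD206+ gate. The Ly6Chi and Ly6Clo groups were classical and non-classical monocytes. The macrophage gate removed cells that stain for B cell markers or for the T cell marker CD3, while NK1.1, the protein of Klrb1c, is not named in it.

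Cytotoxic lymphocytes kill by fusing lysosome-like granules with the membrane that faces a target cell. Perforin opens that membrane and granzymes enter through it to start cell death, and NKG7 is a membrane protein of these granules that is needed for their efficient release. NK cells decide by a balance of germline-encoded activating and inhibitory receptors, whereas T cells use a rearranged T cell receptor that signals through the CD3 chains. Perforin and NKp46 are textbook markers of lymphocytes, and in a sorted fraction RNA made by the sorted cells and RNA of lymphocytes carried into it cannot be told apart.

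The starts of 7 of the 10 genes have a promoter sequence in the RefSeq table used here (mouse build GRCm38.p6), and the 250 bases before each start were searched on both strands for the core letters bound by transcription factor families that act in NK and T cells. The RUNX letters TGTGGT were present before 6 of the 7 genes (Gzma, Gzmb, Klrb1c, Ncr1, Nkg7 and Prf1) against 14.0% of 32851 promoters. The T-box letters TCACAC were present before 3 of the 7 (Gzmb, Ncr1 and Nkg7) against 12.3%, the ETS letters GGAAGT before 3 (Cd3e, Klrb1c and Prf1) against 19.7%, and the PU.1 letters GAGGAAGT, which contain the ETS letters, before 0 of the 7 against 2.44%. These are letter matches in the window searched, not measured binding. The 3 promoters that hold both RUNX and T-box letters are printed here, 5′ to 3′ on the strand of the gene, with every match in capitals. They are Nkg7 (chr7:43436888-43437137, plus strand), Ncr1 (chr7:4337465-4337714, plus strand, the first of its 2 listed starts) and Gzmb (chr14:56262335-56262584, minus strand), all in GRCm38.p6.
Nkg7: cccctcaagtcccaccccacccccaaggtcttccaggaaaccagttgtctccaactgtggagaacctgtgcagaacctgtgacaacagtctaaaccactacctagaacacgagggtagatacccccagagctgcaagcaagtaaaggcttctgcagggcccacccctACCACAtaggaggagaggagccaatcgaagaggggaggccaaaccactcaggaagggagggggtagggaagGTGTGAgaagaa
Ncr1: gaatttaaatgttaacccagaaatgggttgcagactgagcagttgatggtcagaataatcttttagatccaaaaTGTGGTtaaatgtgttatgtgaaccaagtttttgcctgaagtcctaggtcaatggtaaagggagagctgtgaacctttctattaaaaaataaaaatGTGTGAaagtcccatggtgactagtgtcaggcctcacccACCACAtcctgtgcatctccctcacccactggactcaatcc
Gzmb: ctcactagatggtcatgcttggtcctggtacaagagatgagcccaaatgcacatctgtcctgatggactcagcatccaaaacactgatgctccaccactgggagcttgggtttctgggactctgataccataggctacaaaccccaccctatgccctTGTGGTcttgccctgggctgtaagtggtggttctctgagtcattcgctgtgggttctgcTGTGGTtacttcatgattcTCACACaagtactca
In the Nkg7 promoter the RUNX letters ended 78 bases and the T-box letters 7 bases before the start, both on the opposite strand. The Gzmb promoter had its T-box letters 10 bases before the start with RUNX letters ending 29 and 88 bases before it, and the Ncr1 promoter had RUNX letters on both sides of its T-box letters.

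Levels are given in TPM, transcript abundances that the authors scaled by gene length and library, and differences as log2 changes of counts from DESeq2 with their standard errors (SE). A change was called at an adjusted p under 0.05 over all genes tested, and a log2 change is printed only where the 6 libraries compared averaged 10 normalized counts or more. Such a gene can pass that minimum through the group in which it is high. Depth ran from 26390927 to 48618187 counts per library. Ly6Clo replicate 2, with counts in 16434 genes against 22254 to 27634 in the other monocyte libraries, and eYFP+ replicate 1 were low for GC-rich transcripts, by 1.24 and 0.72 on the log2 scale relative to their groups. Both macrophage groups had the macrophage genes Vcam1 (8965 to 14369 TPM), Mrc1 and Adgre1 at high levels. Marker genes of basophils, neutrophil precursors and progenitors summed higher in the eYFP- libraries and are described after the members.

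Nkg7, the granule membrane gene, had the lowest level of the 4 groups in eYFP+ macrophages. It stood at 4.32, 5.98 and 6.20 TPM in the 3 eYFP+ libraries and at 38.3, 56.3 and 78.5 TPM in the 3 eYFP- libraries. In monocytes it stood at 50.1, 27.7 and 33.8 TPM in Ly6Chi and at 10.3, 10.2 and 10.5 TPM in Ly6Clo libraries. The order of the means was thus eYFP- above Ly6Chi above Ly6Clo above eYFP+, and of these neighbours the ranges of the first pair overlapped while the others did not. In normalized counts Nkg7 averaged 93.9 ± 10.003 in eYFP+ and 964 ± 324 in eYFP- macrophages (SD, n = 3), a ratio of 10.3 and a log2 change of −3.36 ± 0.35 (SE). This contrast chose the gene, so the change is a description and was not tested. Because whole sorted fractions were sequenced, fewer cells that make a transcript and less transcript per cell cannot be told apart.

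**Figure D1:**
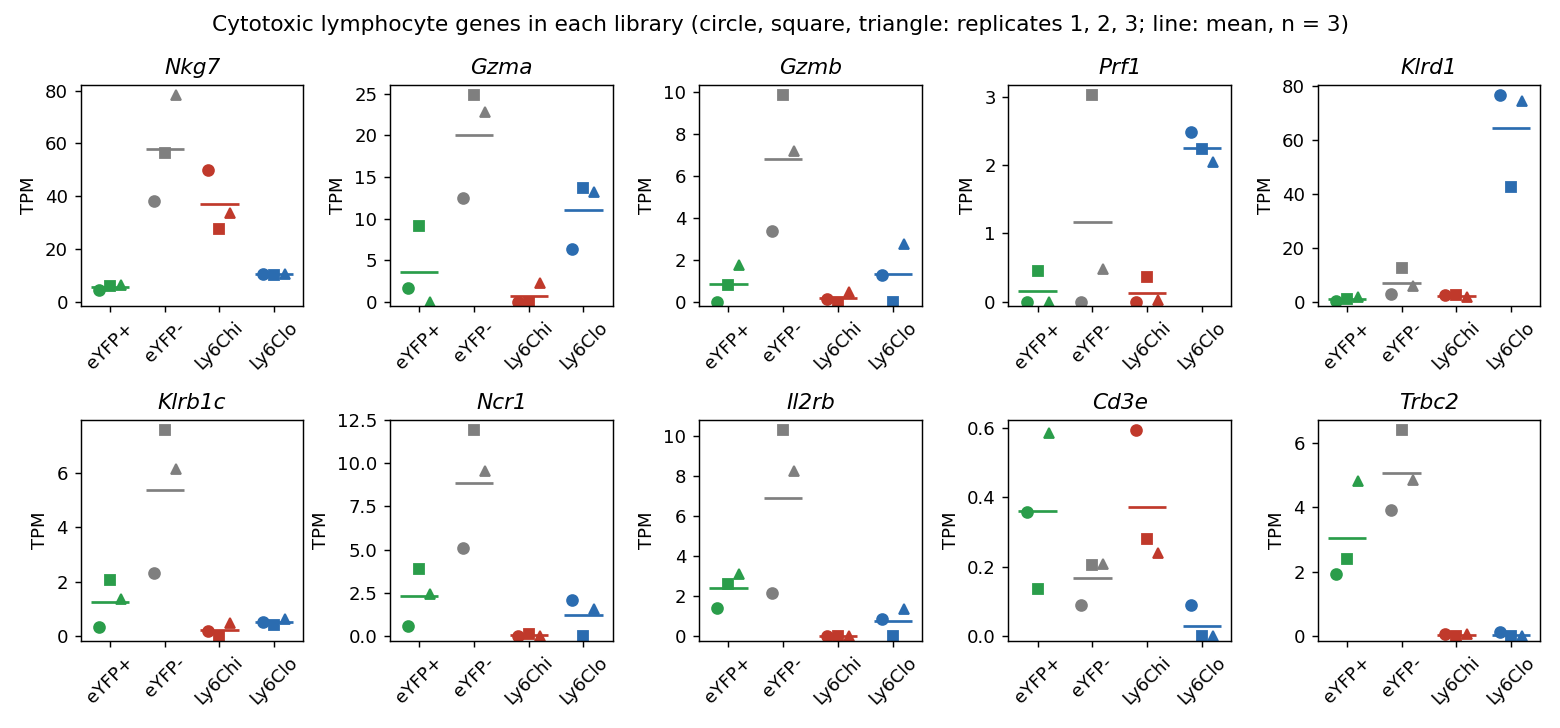
TPM of the 10 genes (vertical axes from 0, a scale of its own per gene) in the 3 libraries of each of the 4 groups, with replicates 1, 2 and 3 as circle, square and triangle and the mean as a line. Nkg7 was at 27.7 to 50.1 TPM in Ly6Chi monocytes, where Klrd1 was at 1.70 to 2.40 TPM and Ncr1, Il2rb and Trbc2 were near 0.

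The granule killers Gzma, Gzmb and Prf1 had lower means in eYFP+ than in eYFP- macrophages, but none of these changes passed the test. Gzma encodes granzyme A, a tryptase, and stood at 1.68, 9.09 and 0 TPM in eYFP+ and at 12.5, 24.8 and 22.9 TPM in eYFP- libraries. The groups did not overlap, but the eYFP+ libraries ran from 159 read pairs in replicate 2 to none in replicate 3. There a count of 0 allows up to 3 by counting error alone, with amplified reads taken as independent. The log2 change of Gzma was −2.43 ± 1.99 (adjusted p = 0.932). Gzmb encodes granzyme B, which cleaves caspases, and stood at 0, 0.769 and 1.76 TPM in eYFP+ and at 3.34, 9.82 and 7.16 TPM in eYFP- libraries, again without overlap. Its log2 change was −3.02 ± 1.84 (adjusted p = 0.755). Prf1, the perforin gene, was detected in 1 of the 3 eYFP+ libraries (0.446 TPM) and in 2 of the 3 eYFP- libraries (3.02 and 0.476 TPM). The groups overlapped, with a log2 change of −2.86 ± 2.42 (adjusted p = 0.948).

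Among the NK receptors, Klrd1 fell in eYFP+ macrophages by DESeq2. Klrd1 encodes CD94, the partner of the NKG2 receptors that bind non-classical MHC class I, and stood at 0.319, 1.12 and 1.87 TPM in eYFP+ and at 2.73, 12.3 and 5.70 TPM in eYFP- libraries. Every eYFP+ library was below every eYFP- library. The log2 change was −2.60 ± 0.58 with a DESeq2 adjusted p of 0.00123, while edgeR's quasi-likelihood test gave −2.61 with an adjusted p of 0.105 (0.000114 to 0.105 over the 15 alternatives). Klrb1c encodes NK1.1, the antigen by which NK cells are sorted in this strain, and stood at 0.345, 2.07 and 1.37 TPM in eYFP+ and at 2.34, 7.58 and 6.15 TPM in eYFP- libraries. It did not overlap either, by a narrow margin between 2.07 and 2.34 TPM, and its log2 change of −2.06 ± 0.81 missed the threshold (adjusted p = 0.254). Ncr1 encodes the activating receptor NKp46, and stood at 0.618, 3.88 and 2.45 TPM in eYFP+ and at 5.10, 11.9 and 9.56 TPM in eYFP- libraries. Its log2 change was −1.92 ± 1.08 (adjusted p = 0.682). Il2rb encodes the β chain shared by the receptors for IL-2 and IL-15, the survival signal of NK cells, and stood at 1.42, 2.61 and 3.13 TPM in eYFP+ and at 2.18, 10.3 and 8.24 TPM in eYFP- libraries. These groups overlapped, and the log2 change was −1.48 ± 1.01 (adjusted p = 0.843).

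Neither T cell gene was called between the macrophage groups. Trbc2, a constant segment of the T cell receptor β chain, stood at 1.92, 2.39 and 4.83 TPM in eYFP+ and at 3.91, 6.40 and 4.85 TPM in eYFP- libraries. The groups overlapped, and the log2 change was −0.70 ± 0.60 (adjusted p = 0.951). Cd3e, a signalling chain of the receptor, had 4 to 21 read pairs per eYFP+ library (0.137 to 0.585 TPM) and 3 to 7 per eYFP- library (0.0895 to 0.209 TPM), too few for a fold by the minimum used here. Trbc2 and the neighbouring Trbc1 are near copies, as are genes within the granzyme and Klrb1 clusters, so reads that match more than 1 of them were dropped when counting and these levels are uncertain.

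Of the 9 genes other than Nkg7, 8 had a lower mean in eYFP+ than in eYFP- macrophages and 5 did not overlap (Gzma, Gzmb, Klrd1, Klrb1c, Ncr1), where 8.50% of 21567 genes tested were lower in eYFP+ without overlap. DESeq2 called 1 of the 9, Klrd1, where it called 2.04% of all genes tested (1.88% lower and 0.153% higher in eYFP+). At an unadjusted p under 0.05 there were 2 of the 9, Klrd1 and Klrb1c. The share of all genes at that unadjusted threshold was not computed, so such counts, here and below, cannot be weighed against it. edgeR called 0 of the 9, with 2 at an unadjusted p under 0.05, where it called 0.334% of all genes. The median log2 change of the 9 was −2.06, beside 0.049 over all genes tested. Within eYFP- macrophages, replicate 1 had the lowest TPM for 10 of the 10 genes. Replicate 2 had the highest for 8 of them, but for Nkg7 replicate 3 did.

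**Figure D2:**
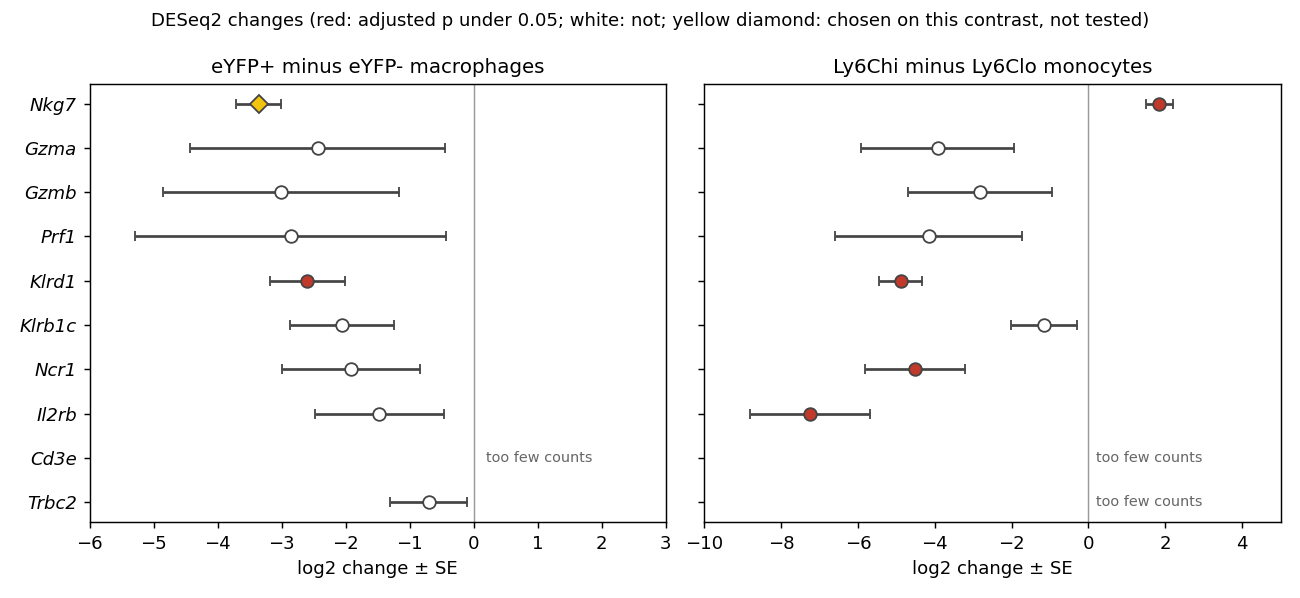
Log2 change with its SE for the 10 genes in eYFP+ minus eYFP- macrophages (left) and Ly6Chi minus Ly6Clo monocytes (right). Red points had a DESeq2 adjusted p under 0.05, white points did not, and the yellow diamond is Nkg7 in the contrast that chose it, without a test. Nkg7 lies at −3.36 on the left and 1.85 on the right, where the other genes with a fold lie below 0.

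The 2 kinds of monocyte, whose libraries were not used to choose Nkg7, differed in opposite directions for Nkg7 and for the NK genes that were called. Nkg7 was higher in Ly6Chi than in Ly6Clo monocytes, with 680 ± 212 against 189 ± 10.3 normalized counts (SD, n = 3) and a log2 change of 1.85 ± 0.35 (DESeq2 adjusted p = 6.09e-06, edgeR adjusted p = 0.00561). The 3 Ly6Chi libraries were above the 3 Ly6Clo libraries. Klrd1 was higher in Ly6Clo, at 76.8, 42.6 and 74.5 TPM against 2.40, 2.36 and 1.70 TPM in Ly6Chi, the highest level of Klrd1 in the 4 groups. Its log2 change was −4.89 ± 0.57 (DESeq2 adjusted p = 1.62e-15, edgeR adjusted p = 0.00127). Prf1 had its highest group mean in Ly6Clo, at 2.48, 2.23 and 2.05 TPM, each above the Ly6Chi libraries (0, 0.356 and 0.0236 TPM), but its log2 change of −4.16 ± 2.43 did not pass (adjusted p = 0.331).

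Gzma stood at 6.31, 13.6 and 13.2 TPM in Ly6Clo and at 0, 0 and 2.199 TPM in Ly6Chi libraries, with a log2 change of −3.93 ± 2.00 (adjusted p = 0.240). Without Ly6Chi replicate 3, the library with 33 of the read pairs of Gzma in that group, Gzma was called (adjusted p = 2.20e-05) against a pair of libraries at 0, which gives no firm fold. Ncr1 and Il2rb were called lower in Ly6Chi, but both were at 0 in Ly6Clo replicate 2, so their groups overlapped. Ncr1 stood at 2.12, 0 and 1.57 TPM in Ly6Clo and had 4 read pairs in Ly6Chi (adjusted p = 0.00968). Il2rb stood at 0.852, 0 and 1.37 TPM in Ly6Clo and had 1 read pair in Ly6Chi (adjusted p = 1.38e-04), and such counts give no firm fold. Without Ly6Clo replicate 1, Ncr1 was no longer called while Cd3e was, and Ncr1 also lost its call with edgeR and without Ly6Chi replicate 1 or 3. With limma on log2(TPM + 0.1) both Ncr1 and Il2rb lost their calls. Over the 15 alternatives the adjusted p of Il2rb ran from 1.75e-07 to 0.416. Gzmb (0.107, 0 and 0.448 TPM in Ly6Chi, 1.24, 0 and 2.75 TPM in Ly6Clo) and Klrb1c (at most 0.632 TPM in the 6 libraries) were not called. Without Ly6Clo replicate 2, Gzmb was called as well (adjusted p = 0.0459). In total, 3 of the 9 genes other than Nkg7 were called, each lower in Ly6Chi, where 4.97% of all genes tested were called lower and 8.62% in either direction (4.32% with edgeR).

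Of the T cell members, Trbc2 was higher in both macrophage groups than in both monocyte groups. Trbc2 had 2 read pairs in the 3 Ly6Chi and 2 in the 3 Ly6Clo libraries, against 28 to 103 per macrophage library. It was called higher in each of the 4 comparisons of a macrophage with a monocyte group, with adjusted p from 4.89e-07 to 1.54e-05. Cd3e stayed at or below 0.594 TPM in the 12 libraries, and in Ly6Clo monocytes it had 3 read pairs in all.

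Against Ly6Chi monocytes, eYFP- macrophages were higher for 6 of the 9 genes other than Nkg7 (Gzmb, Klrd1, Klrb1c, Ncr1, Il2rb and Trbc2), where 16.3% of all genes tested were called higher (edgeR called 23.2% in either direction). Klrb1c (log2 change 4.35 ± 0.84), Ncr1, Il2rb and Trbc2 were also called by edgeR and without any 1 library, and the few read pairs of the last 3 in Ly6Chi give no firm fold. edgeR called neither Gzmb (adjusted p = 0.0573) nor Klrd1 (adjusted p = 0.0797). The call of Gzmb was also lost without eYFP- replicate 1, eYFP- replicate 3 or Ly6Chi replicate 1, and that of Klrd1 without eYFP- replicate 2 or 3 or any of the Ly6Chi libraries. Gzma, higher in each eYFP- library but not called (adjusted p = 0.0695), was called with limma on either log2 TPM scale and without Ly6Chi replicate 3 (DESeq2 adjusted p = 7.48e-07). Nkg7 itself had a log2 change of 0.50 ± 0.34 there, and the libraries overlapped. In eYFP+ macrophages 4 of the 9 were higher than in Ly6Chi (Klrb1c, Ncr1, Il2rb and Trbc2, where 13.9% of all genes were called higher and edgeR called 24.6% in either direction), while Nkg7 had a log2 change of −2.86 ± 0.35. The call of Klrb1c was lost with edgeR and without eYFP+ replicate 2 or 3 or Ly6Chi replicate 1 or 2, and without Ly6Chi replicate 3 Gzma was called as well. The groups did not overlap for Nkg7, and as these macrophage libraries chose the gene no test is given. The 2 comparisons share the Ly6Chi libraries.

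Against Ly6Clo monocytes, eYFP- macrophages were higher for Klrb1c (log2 change 3.19 ± 0.82), Ncr1 (2.74 ± 1.08), Il2rb (3.08 ± 1.01) and Trbc2, and lower for Klrd1 (−3.38 ± 0.55), 5 of the 9 genes, where 15.4% of all genes tested were called higher and 10.8% lower (21.9% in all with edgeR). The call of Ncr1 was lost with edgeR, TMM factors, the minimum of 10 counts in 3 libraries or the GC correction, and without any of the eYFP- libraries or Ly6Clo replicate 3, and that of Il2rb with edgeR and without eYFP- replicate 2 or 3. In eYFP+ macrophages DESeq2 called 2 of the 9 higher and 1 lower than in Ly6Clo, where it called 15.7% of all genes higher and 12.2% lower. edgeR called 2 of the 9, where it called 23.3% of all genes. With 9 genes, these counts do not stand apart from the shares over all genes. The DESeq2 calls were Klrd1 (log2 change −5.98 ± 0.58), lower, and Trbc2 and Cd3e, both higher. The call of Cd3e was lost with edgeR and without eYFP+ replicate 1 or 3 or Ly6Clo replicate 2 or 3, and without eYFP+ replicate 2 Prf1 was called as well. The log2 change of Nkg7 was 2.35 ± 0.34 for eYFP- and −1.01 ± 0.35 for eYFP+ macrophages against these same Ly6Clo libraries, without overlap in either case.

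The ratio of Nkg7 to NK receptor RNA was highest in the Ly6Chi libraries. Per library, the TPM of Nkg7 divided by the summed TPM of Klrb1c and Ncr1 was 4.49, 1.01 and 1.62 in eYFP+ and 5.15, 2.89 and 4.997 in eYFP- macrophages, so the macrophage groups overlapped. It was 234, 173 and 68.9 in Ly6Chi monocytes, over sums of 11, 4 and 22 read pairs in which Ncr1 or Klrb1c was at 0, so these ratios are imprecise. In Ly6Clo monocytes it was 3.91, 24.3 and 4.78, the high value being replicate 2, in which Ncr1 was at 0. Divided by the summed TPM of all 7 NK members, it was 18.4, 9.63 and 6.93 in Ly6Chi monocytes, 0.987, 0.299 and 0.586 in eYFP+ macrophages, 1.36, 0.706 and 1.30 in eYFP- macrophages and 0.115, 0.174 and 0.110 in Ly6Clo monocytes. Not all NK genes were low in Ly6Chi monocytes. Ncr1 (0 to 0.161 TPM) and Il2rb (0 to 0.0139 TPM) were at or near 0, while Klrd1 stood at 1.70 to 2.40 TPM, Klrk1 at 11.7 to 18.5 TPM, Klrb1f at 15.9 to 23.0 TPM and Cd244a at 49.0 to 51.8 TPM. Genes that mark Ly6Chi monocytes were far lower in eYFP- macrophages, where the mean in normalized counts was 0.126% of the Ly6Chi mean for Ly6c2 and 0.857% for Ccr2, against 142% for Nkg7.

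**Figure D3:**
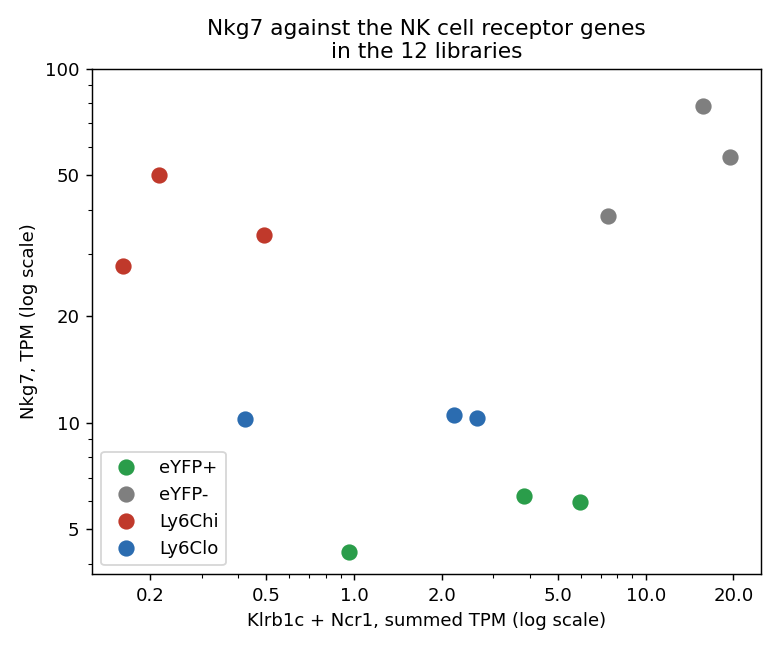
Nkg7 TPM against the summed TPM of the NK receptor genes Klrb1c and Ncr1, 1 point per library, both axes on a log scale. The Ly6Chi points lie at 0.161 to 0.491 summed TPM with Nkg7 at 27.7 to 50.1 TPM, and the eYFP- points at 7.44 to 19.5 summed TPM with Nkg7 at 38.3 to 78.5 TPM.

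Other NK cell genes gave a mixed picture between the macrophages. Of 18 surface and signalling genes of NK cells, DESeq2 called 3 lower in eYFP+ and 0 higher, where it called 1.88% of all genes lower. Their median log2 change was −1.57. At an unadjusted p under 0.05, for which no share over all genes is given, there were 9 lower and 0 higher. The 3 were Ccl5, a chemokine of activated lymphocytes, which stood at 42.5, 34.2 and 50.9 TPM in eYFP+ and 75.8, 116 and 121 TPM in eYFP- libraries (log2 change −1.25 ± 0.32, adjusted p = 0.00888), Il18rap, a chain of the IL-18 receptor (−4.11 ± 1.21, adjusted p = 0.0358), and Klra8, the receptor Ly49H, at or below 0.0346 TPM in eYFP+ and at 0.851, 1.53 and 2.44 TPM in eYFP- libraries. edgeR called 0 of the 18, where it called 0.334% of all genes, with 8 at an unadjusted p under 0.05. Some genes of the list stood at high levels in macrophages of both origins. Klrk1, which encodes NKG2D, stood at 33.8 to 63.7 TPM in eYFP+ and 44.5 to 51.5 TPM in eYFP- libraries, and Sh2d1b1, an adaptor of SLAM receptors, at 66.2 to 93.6 and 57.7 to 65.8 TPM. The summed TPM of the list was 188 to 276 in eYFP+, 255 to 307 in eYFP-, 151 to 187 in Ly6Chi and 714 to 996 in Ly6Clo libraries. In Ly6Clo replicates 1 and 3 a large share came from S1pr5, a lipid receptor that guides exit from the marrow, at 511 and 508 TPM. In replicate 2 S1pr5 stood at 57.7 TPM. Ccl5 stood at 253, 235 and 133 TPM in the Ly6Clo libraries.

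The machinery around the granules, much of which myeloid cells share, had 1 call in each of its lists between the 2 kinds of macrophage, where 2.04% of all genes were called. Of 10 genes for granule storage, processing and protection, 1 was called lower in eYFP+, Cst7, which encodes cystatin F, an inhibitor of granzyme-activating cathepsins (2.46, 2.04 and 0.868 TPM against 3.49, 16.2 and 20.9 TPM, log2 change −2.82 ± 0.62, DESeq2 adjusted p = 0.00104). edgeR did not call it (adjusted p = 0.108). The median log2 change of these 10 was 0.047. Srgn, the proteoglycan core on which granzymes are stored, stood at 133 to 153 TPM in eYFP+ and 180 to 273 TPM in eYFP- libraries and was not called. Of 8 genes for granule release or its restraint, 3 were lower at an unadjusted p under 0.05 and 1 was called, Adgrg1, an adhesion receptor of cytotoxic lymphocytes that stem and progenitor cells also make. It stood at 2.88, 4.05 and 3.30 TPM in eYFP+ and 22.6, 49.8 and 47.8 TPM in eYFP- libraries, with a log2 change of −3.50 ± 0.59 (DESeq2 adjusted p = 1.40e-06, edgeR adjusted p = 0.0404). Among 3 tested effectors beyond the members DESeq2 called 0, with 1 at an unadjusted p under 0.05.

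Transcription factors of the cytotoxic lineage included 9 tested genes, of which DESeq2 called 0 (3 lower at an unadjusted p under 0.05), with a median log2 change of −1.51. Tbx21, the T-box factor T-bet, and Runx3 are given because their families' letters were searched for in the promoters. Tbx21 stood at 0, 0.605 and 0.655 TPM in eYFP+ and 0.666, 5.20 and 3.78 TPM in eYFP- libraries (log2 change −2.91 ± 1.36, adjusted p = 0.467). Runx3 stood at 23.3 to 27.7 TPM in Ly6Chi and at 15.5, 1.80 and 16.7 TPM in Ly6Clo monocytes, against at most 3.03 TPM in the macrophage libraries, and Tbx21 was at or below 0.0236 TPM in Ly6Chi. Of 7 partners of the IL-2 and IL-15 receptors and 6 adaptors shared with myeloid cells, DESeq2 called 0 and 0, and 0 and 0 reached an unadjusted p under 0.05.

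Of 18 tested T cell genes beyond the members, 2 were called lower in eYFP+, the signalling genes Lck (0.675, 1.24 and 1.03 TPM against 2.73, 6.91 and 7.30 TPM, adjusted p = 0.00153) and Lat (3.47, 5.57 and 4.03 TPM against 8.09, 10.03 and 14.3 TPM, adjusted p = 0.0464), both of which NK cells also use. Over all genes tested DESeq2 called 1.88% lower in eYFP+. edgeR called 0 of these T cell genes, where it called 0.334% of all genes, with 3 at an unadjusted p under 0.05. The genes that define T cells were low, with Cd3d at or below 1.41, Cd3g at or below 1.58 and Trac at or below 3.27 TPM in the 12 libraries. The summed TPM of the list (163 to 252 in eYFP+, 91.3 to 170 in eYFP- libraries) was mostly Cd4, which stood at 155 to 227 and 71.5 to 133 TPM.

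The summed TPM of basophil, neutrophil precursor and progenitor genes was lower in eYFP+ than in eYFP- macrophages, as Nkg7 was. Over all genes tested, DESeq2 called 1.88% lower in eYFP+, and edgeR called 0.334% in either direction. The basophil and mast cell list summed to 366, 539 and 856 TPM in the 3 eYFP- libraries and to 17.6, 19.9 and 12.3 TPM in the eYFP+ libraries, and 2 of its 7 tested genes were called lower in eYFP+ by DESeq2 (Mcpt8 and Hdc) and 0 by edgeR, where 6 had an unadjusted p under 0.05. The basophil protease gene Mcpt8 stood at 87.4, 155 and 203 TPM in eYFP- and at 0, 0.180 and 0.146 TPM in eYFP+ libraries. In monocytes this list summed to 9.09 to 170 TPM in Ly6Chi, where replicate 3 alone held the high value, and to 7.16 to 17.8 TPM in Ly6Clo. Neutrophil precursor granule genes summed to 225 to 1353 TPM in eYFP- and 28.9 to 73.4 TPM in eYFP+ libraries, with 5 of 8 called lower in eYFP+ by DESeq2 and 1 by edgeR (Prtn3). The high end was eYFP- replicate 2, which held Camp and Ngp at 264 and 313 TPM where replicates 1 and 3 had 9.44 and 9.37 TPM of Camp. Stem and progenitor cell genes summed to 102 to 107 TPM in eYFP- and 13.0 to 15.3 TPM in eYFP+ libraries, with 4 of 8 called lower by DESeq2 (Cd34, Kit, Mycn and Myb) and 1 by edgeR (Cd34). Dendritic cell genes had 3 of 10 called lower by DESeq2 and 0 by edgeR, with 4 at an unadjusted p under 0.05. Siglech, Ccr9, Cox6a2 and Tcf4 of this list had higher means in eYFP+ and were not called. DESeq2 called 0 of 9 tested B cell genes, with 3 lower at an unadjusted p under 0.05 and a median log2 change of −1.69. The B cell list summed to 622 to 916 TPM in eYFP+ and 600 to 745 TPM in eYFP- libraries. Of 10 bone marrow macrophage genes DESeq2 called 0, and 0 reached an unadjusted p under 0.05. The part of these cells in the difference of Nkg7 or of the NK genes was not tested.

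**Figure D4:**
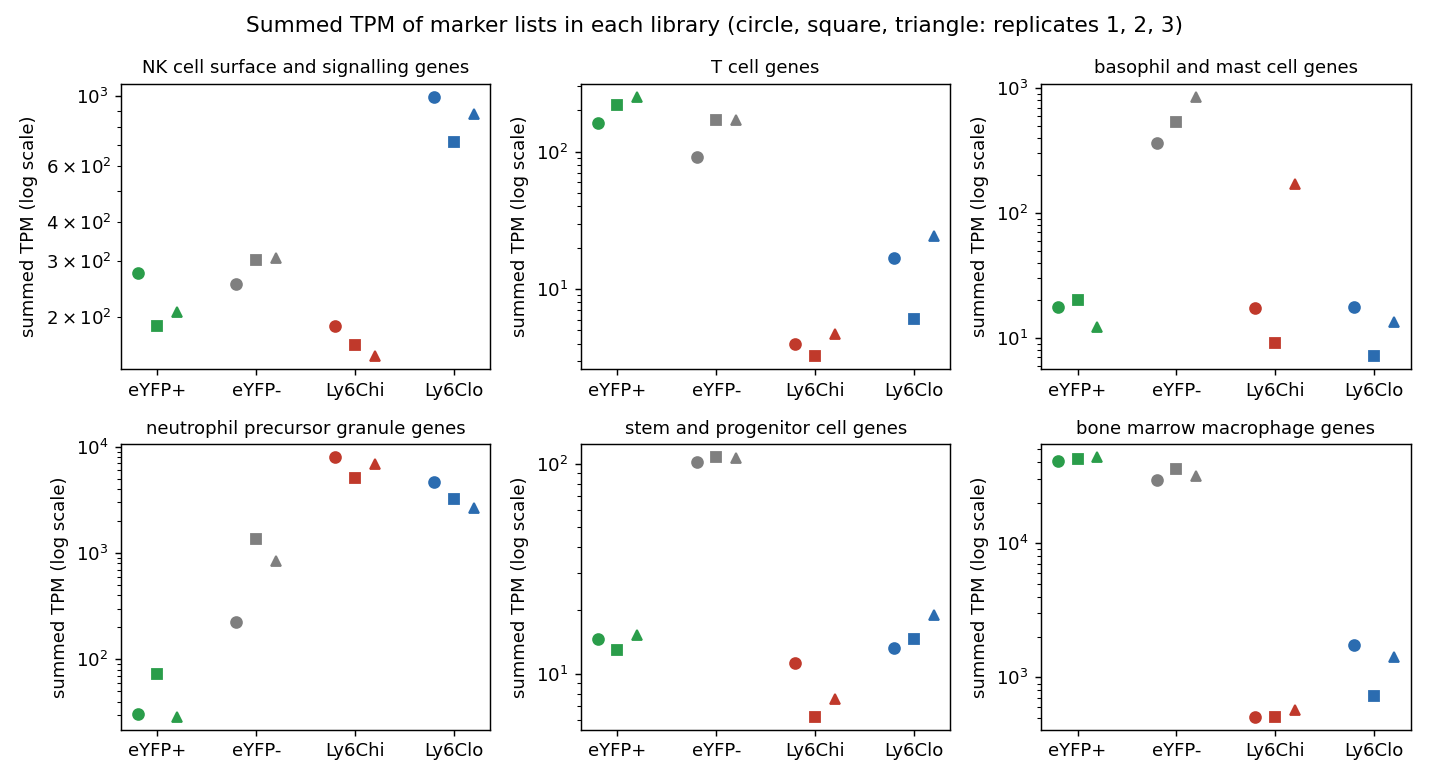
Summed TPM (log scale) of 6 marker lists in each library, with replicates 1, 2 and 3 as circle, square and triangle. The basophil, neutrophil precursor and progenitor lists were higher in each eYFP- library than in each eYFP+ library, while the macrophage list was lower there, at 29475 to 35636 TPM in eYFP- and 40672 to 43574 TPM in eYFP+ libraries.

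The 8 genes whose pattern was most like that of Nkg7 included none of the other members, of which Prf1, Cd3e and Trbc2 were below the minimum count and not ranked. Likeness was Pearson's r of log2 normalized counts over the 12 libraries, among 10957 genes with a mean of at least 50 normalized counts, and it is a description in which the 3 libraries of a group are alike for many genes. The 8 highest were Gypc, a glycophorin (r = 0.915), the exonuclease gene Isg20 (0.890), Prtn3, a serine protease of azurophil granules (0.887), the mitotic kinase gene Aurkb (0.882), the tubulin gene Tuba8 (0.881), the myeloperoxidase gene Mpo (0.879), and Cdca3 and Tcf19, both linked to cell division (0.875 and 0.872). Gypc averaged 309 normalized counts in eYFP+ and 2409 in eYFP- macrophages, 1610 in Ly6Chi and 601 in Ly6Clo monocytes. Mpo averaged 810, 18209, 18374 and 358 in the same order. Among the other members r with Nkg7 ran from −0.14 for Il2rb to 0.32 for Gzmb.

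**Figure D5:**
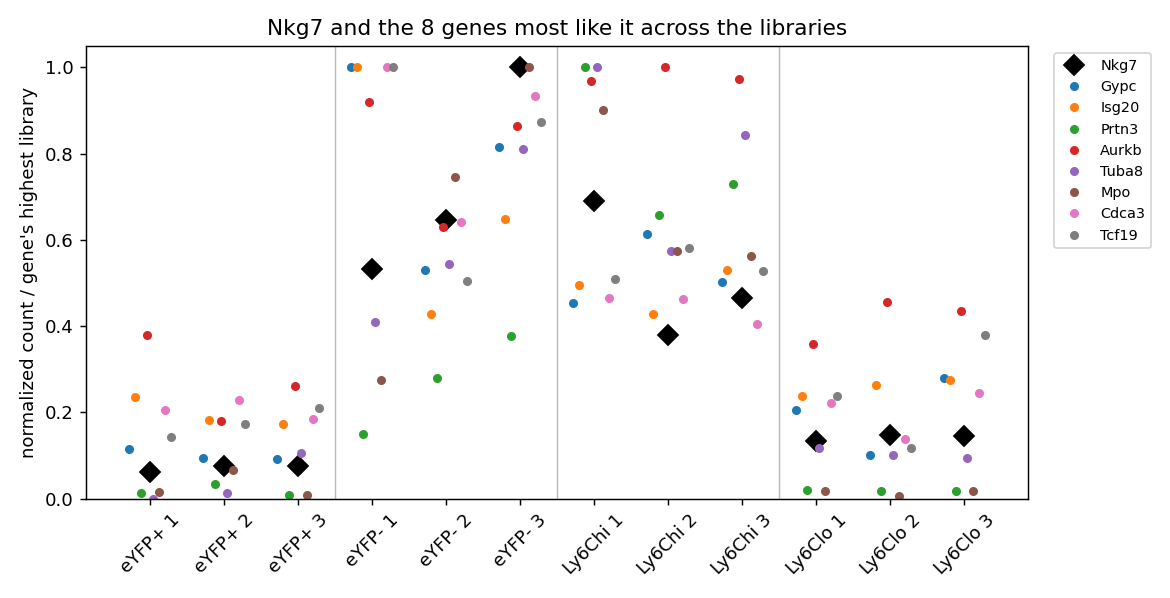
Normalized counts of Nkg7 (black diamonds) and of the 8 genes most like it, each divided by its own highest library, in the 12 libraries. The genes were picked by this likeness, so the shared pattern was set by the choice. Group means were higher in eYFP- macrophages and Ly6Chi monocytes than in eYFP+ macrophages and Ly6Clo monocytes.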

How the data were processed

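Polyadenylated RNA of sorted bone marrow cells was amplified as full-length cDNA without molecular identifiers, so reads are not independent molecules. Per the labels and the study's methods, base calls came from bcl2fastq 2.20.0.422, reads were aligned to GRCm39, and the authors deposited counts, whole numbers of read pairs assigned unambiguously to 1 gene by featureCounts (use of strand is not given in the sources used here). The authors also deposited TPM, which are scaled by gene length and library. A deposited table of variance-stabilised values was not used. Symbols matched 91.4% of the Ensembl identifiers.

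The members and gene lists were chosen with earlier results of these data known. The counts went into DESeq2 1.42.0 (R 4.3.3; 1 fit over 12 libraries, group as the factor, Wald tests, Benjamini-Hochberg adjusted p under 0.05 over the whole table with independent filtering). All members are named. Of the other lists, at most the 3 genes with the highest TPM and the 3 called genes with the lowest adjusted p between the macrophages are named by rule. The monocyte marker list is not reported here. Tbx21, Runx3, Cd3d, Cd3g, Trac and further list genes were named after their values were seen. The alternatives were edgeR 4.0.16, TMM factors, a minimum of 10 counts in 3 libraries, no Cook's cutoff, a GC correction, a replicate block, limma 3.58.1 on log2(TPM + 1) or log2(TPM + 0.1), and leaving out each library. The scripts were tested on simulated data, in which DESeq2 made more false calls than edgeR and edgeR missed more of the changed genes. The sources used here do not say whether same-numbered libraries share a mouse, or whether libraries are separate animals, so p-values measure the spread between libraries only.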

Additional observations from a re-analysis of the deposited data

How the results depend on the processing

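Nkg7 kept its direction between the macrophage groups under the 15 alternatives, with log2 changes from −3.54 to −3.06, but the gene was chosen for this change in these libraries, so this is no sign of stability. The 1 call among the 9 other members, Klrd1, fell to 0 with edgeR, with limma on log2(TPM + 1) and with limma on log2(TPM + 0.1), and stayed at 1 without any 1 library. Between monocytes the 4 calls, with Nkg7 among them, fell to 2 with limma on log2(TPM + 0.1) and ranged from 3 to 5 without 1 library. Among the 9 others, the 6 calls of eYFP- against Ly6Chi ranged from 4 to 6 without 1 library, the 5 against Ly6Clo from 3 to 5 (3 without eYFP- replicate 2 or 3), the 4 of eYFP+ against Ly6Chi from 3 to 5 and the 3 against Ly6Clo from 2 to 4 (2 without eYFP+ replicate 1 or 3 or Ly6Clo replicate 2 or 3). Of 718 values of single members, those of Nkg7 in macrophage comparisons left out, 650 kept their direction and side of the threshold, 47 lost and 18 gained a call, and 3 reversed without being called. These were Cd3e in eYFP+ against Ly6Chi, at 0.25 without eYFP+ replicate 2 and 0.37 without Ly6Chi replicate 1 (from −0.58 to 0.37 without 1 library), and Gzmb in eYFP+ against Ly6Clo, at 0.34 without Ly6Clo replicate 3 (from −1.89 to 0.34). The cause of these changes was not tested.

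Over all genes the 439 calls between macrophages became 64 with edgeR, 205 with limma on log2(TPM + 0.1), 227 without eYFP- replicate 3 and 1150 with the replicate block. Deviations of same-numbered macrophage libraries correlated at 0.134, 0.0499 and 0.0466, so the numbers were not taken to pair the samples. With the replicate block the counts called among the 9 members other than Nkg7 were 1 between macrophages, 4 between monocytes, 5 and 5 for eYFP- and 3 and 3 for eYFP+ against Ly6Chi and Ly6Clo. Prf1 gained a call with the block against Ly6Clo in the 3 comparisons (adjusted p = 3.30e-04 for Ly6Chi, 0.0450 for eYFP- and 3.49e-05 for eYFP+). Klrd1 lost its call in eYFP- against Ly6Chi, Klrb1c in eYFP+ against Ly6Chi, Ncr1 in eYFP- against Ly6Clo and Cd3e in eYFP+ against Ly6Clo. Groups of 3 and members at a few read pairs limit what could be detected.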
